A study of Saccharomyces cerevisiae with 24 samples.

Results

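The genes described here encode the cyclins that partner the cyclin-dependent kinase Cdc28 of budding yeast, together with its inhibitor Sic1. They were chosen by name and systematic name: CLN1 (YMR199W), CLN2 (YPL256C), CLN3 (YAL040C), CLB1 (YGR108W), CLB2 (YPR119W), CLB3 (YDL155W), CLB4 (YLR210W), CLB5 (YPR120C), CLB6 (YGR109C) and SIC1 (YLR079W). These are 10 of the 7126 features of the expression table. Averaged over the libraries, all 10 reached 1 FPKM, the minimum for testing, as did 6359 features in all. FPKM scales sequenced fragments by transcript length and by the fragments mapped in a library, so it compares levels of different genes per length.

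Whole-cell RNA of 4 strains was sequenced, a wild type (WT) and the mutants Mut1, Mut2 and Mut3. Mid-log cells in synthetic complete medium were put in 0.4 M NaCl and sampled after 0, 10 and 20 min. Each of the 12 groups holds 2 libraries, and the labels name no synchronisation of the cells. The comparisons ask how the genes responded to salt in each strain, how the mutants differed from the wild type before salt, and whether their responses differed. Every group, the wild type included, shares the parent W303-1a with sho1::HIS3, so the osmosensor of the other input branch is missing throughout, and a qVenus reporter under the STL1 promoter (leu2::LEU2-pSTL1-qVenus). In Mut1 the Sln1 substitutions were E1101K, E1110K and S1179D, and Ypd1 had M20D. Mut2 differed from Mut1 by the added Ypd1 substitution M92K. Mut3 had L1109K beside those 3 Sln1 substitutions, and I13D in Ypd1 in place of M20D. Per the labels' protocols, the cassettes used in strain construction carried TRP1 and HPH around YPD1, and URA3 and KanMX with SLN1. The labels do not say how many clones stand behind each strain, nor that the libraries of a group came from separate cultures, so p-values measure only the spread between these libraries.

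Cdc28 is active only when bound to a cyclin. Cln3 starts the commitment to division at Start, after which the transcription factors SBF and MBF switch on CLN1, CLN2, CLB5 and CLB6; Clb5 and Clb6 then drive DNA replication, and Clb1 to Clb4 drive spindle assembly and mitosis. Sic1 binds Clb kinases and holds back replication until it is phosphorylated and destroyed. In osmotic stress the histidine kinase Sln1 and the phosphotransfer protein Ypd1 stop silencing the response regulator Ssk1, and the MAP kinase Hog1 that this activates is known to delay the cell cycle through G1 cyclins, Clb2 and Sic1.

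The coding regions overlap no other annotated gene and lie on 6 chromosomes of build R64 (the same assembly as sacCer3). CLN1 lies at chrXIII:662644-664284, CLN2 at chrXVI:64977-66614 and CLN3 at chrI:65778-67520. The cyclins of S phase and mitosis sit side by side in converging pairs. CLB1 (chrVII:703636-705051) faces CLB6 (chrVII:705359-706501) across 307 bases, and CLB2 (chrXVI:771653-773128) faces CLB5 (chrXVI:773875-775182) across 746 bases. CLB3 is at chrIV:176773-178056, CLB4 at chrXII:562008-563390 and SIC1 at chrXII:286820-287674. The library kit keeps strand, but whether fragments were counted by strand is not given in the sources used here, so reads running past the end of a converging neighbour may be shared within these pairs. Paralogues differ enough to be told apart by most reads. The coding sequences were 68.1% identical between CLN1 and CLN2, 72.7% between CLB1 and CLB2, 66.8% between CLB3 and CLB4 and 64.7% between CLB5 and CLB6 over their aligned bases, and 0 hits reached 95% identity over 50% of the length.

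Windows of 30 bases are printed for motifs of factors named below, to show which of these promoters carry their letters. The sequences are those of the RefSeq R64 reference (strain S288C, while these strains are W303), read 5′ to 3′ on the strand of the gene, with the matched motif in capitals. In the 700 bases before each start codon, on both strands, the SBF motif CNCGAAA occurred 3 times in CLN2 and 2 times in CLN1 and CLB4, and 1 time in CLB1 and SIC1, against at least 1 match in 27.3% of 5999 promoters of the same length and 3 or more in 0.55%. The MBF motif ACGCGT occurred 2 times in CLB6 and 1 time in CLN1, against 6.98% of promoters with a match. No match of the SBF motif overlapped a match of the MBF motif. The forkhead motif GTAAACA (13.6% of promoters) was found in CLB1, CLB4 and CLB6, where the CLB1 match is on the other strand and reads TGTTTAC below. The stress response element AGGGG (44.5% of promoters) occurred 2 times in SIC1 and 1 time each in CLN1, CLB1 and CLB2, reading CCCCT below. The Swi5 motif ACCAGC (20.3% of promoters) was found in CLB4 and CLB5, and the Mcm1 motif (63.9%) in 8 of the 10 promoters. A match describes letters in this window and is not a site of binding.
CLN2, SBF motif, chrXVI:67134-67163, minus strand: cgtgttctagtCACGAAAcgcgccaaaaac
CLN1, SBF motif, chrXIII:662198-662227, plus strand: agtgacgaagaCTCGAAAattaaaaaaaaa
CLN1, MBF motif, chrXIII:662026-662055, plus strand: agcctgcaagagACGCGTtcaaggaagaat
CLB6, MBF motif, chrVII:706861-706890, minus strand: atttaacgaccaACGCGTattcttcgcgtt
CLB1, forkhead motif, chrVII:702997-703026, plus strand: gcacgacctttTGTTTACaaccgcccaaag
SIC1, stress response element, chrXII:286551-286580, plus strand: acataccattccCCCCTcaaatcaatatga

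No read counts were used, so the depth behind each FPKM value is unknown. SHO1 was listed at 0 in all 24 libraries. The 6 genes specific to MATa cells, the mating type of W303-1a, were detected in every library, while the MATalpha pheromone gene MF(ALPHA)1 was at 0 in 13 libraries and at most 2.05 FPKM, and STE3 was at most 0.596 FPKM. The other MATalpha genes were detected in every library, MF(ALPHA)2 at 11.3 to 30.03 FPKM and SAG1 at 10.1 to 21.2 FPKM. Columns ending in 0 and in 1 are called library 0 and library 1. Same-numbered libraries shared their deviations from the group means, so every test was run both without and with the library number as a block. A p-value or count is from the fit without the block unless the text around it names the block. For genes and lists beyond the 10, the blocked value is not always given. Both fits use the columns as deposited unless rescaling is named. SIC1, CLN2, CLN3 and CLB3 were higher in library 1 in 12 of 12 groups. The ratio of library 1 to library 0 was 1.64 to 2.30 for SIC1, 1.19 to 1.63 for CLN2, 1.19 to 1.59 for CLN3 and 1.07 to 1.32 for CLB3. CLB6 went the other way, higher in library 1 in 1 of 12 groups. The median ratio over all tested features was 1.05 to 1.19. Library 0 of Mut2 at 20 min stood apart: its 54 structural and other RNA genes summed to 2863 FPKM, against 196 to 535 in the other libraries.

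**Figure D1:**
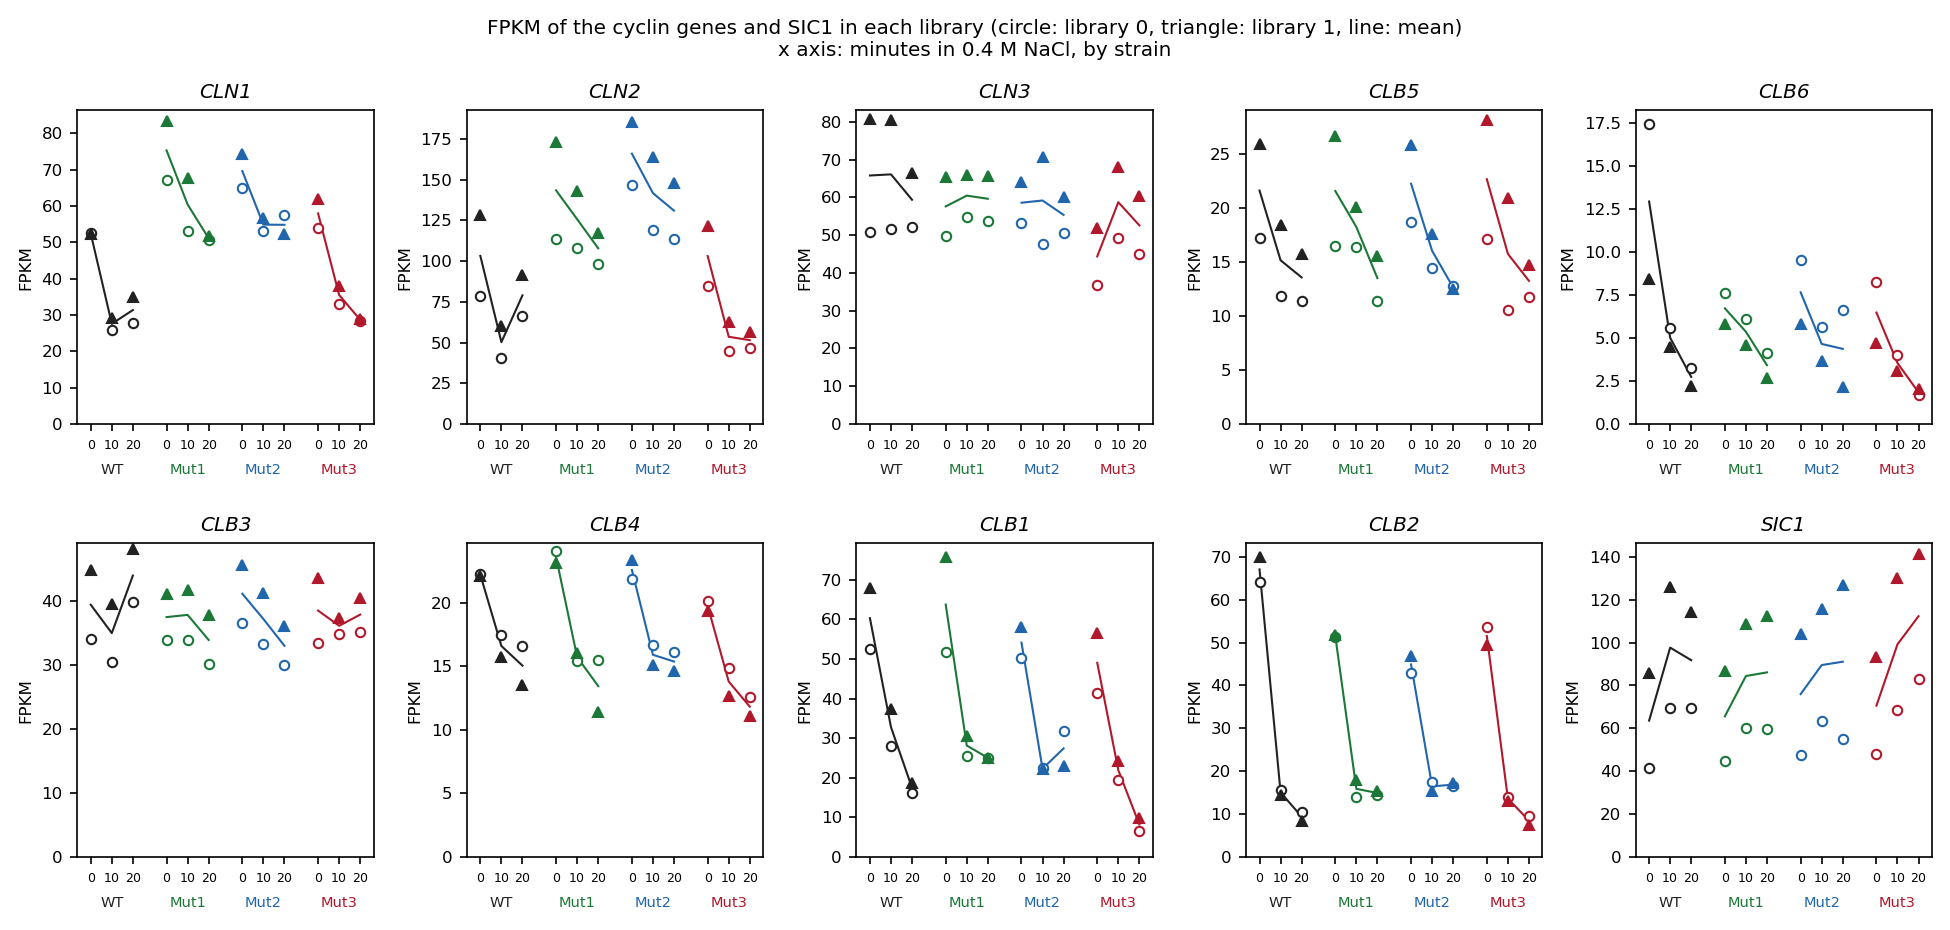
FPKM (y axis, linear, from 0) of each of the 10 genes in every library at 0, 10 and 20 min in 0.4 M NaCl (x axis, by strain); circles are library 0, triangles library 1 and lines join the means of 2 libraries. CLB2 drops from between 42.9 and 70.0 FPKM before salt to between 7.53 and 17.8 in salt in all 4 strains, while SIC1 is higher in salt within each library number.

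CLB1, CLB2 and CLB4 fell in all 4 strains at both 10 and 20 min, and the inhibitor gene SIC1 was not called lower in any. Without the block the G1 cyclin gene CLN1 was called lower at both times in the wild type and Mut3 and at 20 min in Mut1. CLN2 was called lower at both times in Mut3 and at 10 min in the wild type. With the block CLN1 was called lower in all 4 strains at both times, and CLN2 in all 4 at 20 min. Some of these blocked calls were lost when a library was left out. CLN3 and CLB3 had the smallest range of group means among the 10, 1.49-fold and 1.33-fold between their highest and lowest group. In these bulk libraries, fewer cells in a stage of the cell cycle and less RNA per cell cannot be told apart.

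At 10 min against 0 min, 6 of the 10 genes were called lower in the wild type (limma, adjusted p under 0.05), against 17.6% of all tested features. The count was 3 in Mut1 (15.5% of all features), 3 in Mut2 (15.4%) and 5 in Mut3 (16.7%). At 20 min, 5 were called lower in the wild type (22.5% of all features), 4 in Mut1 (19.5%), 3 in Mut2 (18.2%) and 6 in Mut3 (22.4%). With the block, 8 were lower and 1 higher at 10 min in the wild type, where 29.8% of all features were lower and 31.8% higher. The blocked counts at 10 min were 4 lower and 1 higher in Mut1 (26.7% and 31.4% of all features), 5 and 1 in Mut2 (27.4% and 31.4%) and 7 and 2 in Mut3 (28.2% and 32.4%). At 20 min they were 7 lower and 2 higher in the wild type (31.9% and 38.8%), 7 and 1 in Mut1 (29.6% and 34%), 8 and 1 in Mut2 (29.1% and 35.5%) and 7 and 2 in Mut3 (31% and 39.5%). All 42 calls made without the block in any comparison were also made with it, where 91 calls were made.

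The median log2 change of the 10 genes at 10 min was between -0.68 (wild type) and -0.24 (Mut1), while that of all tested features was between 0.02 and 0.04. At 20 min the members' median was -0.58 in the wild type, where that of all features was 0.07. Rescaling the columns by median ratios lowered the median change of all features at 20 min in Mut3 by 0.10 on the log2 scale, the largest such shift.

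**Figure D2:**
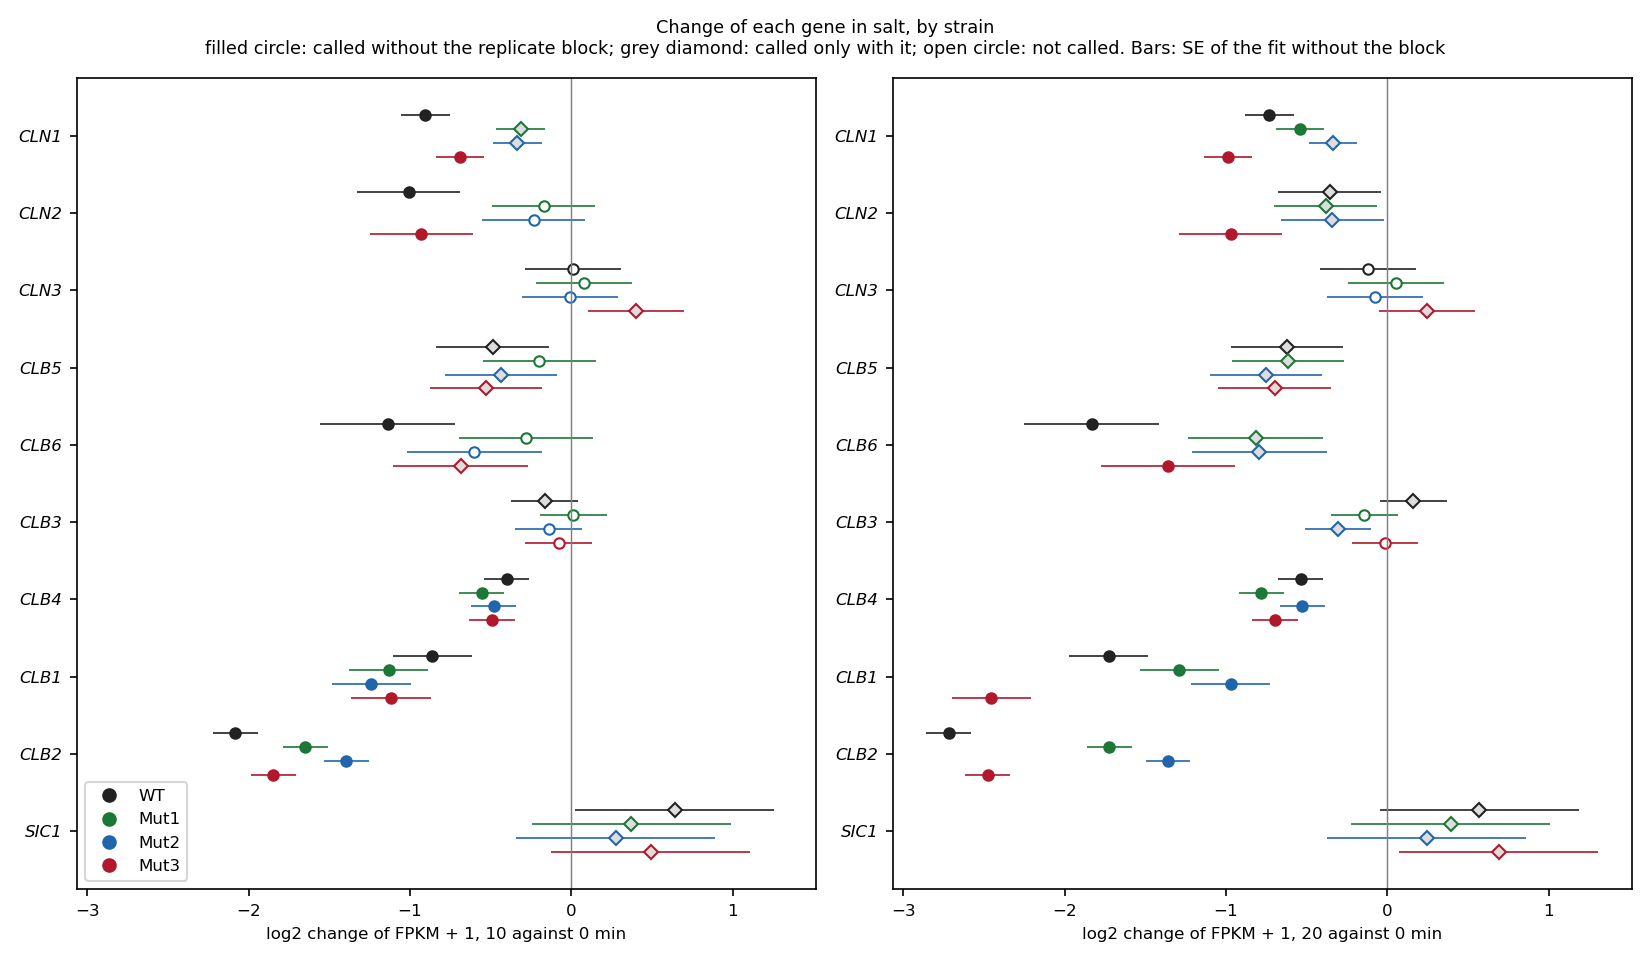
Log2 change of FPKM + 1 (x axis) of each gene (rows) at 10 min (left) and 20 min (right) against 0 min, by strain (colours), with bars of 1 SE of the fit without the block. Filled circles, calls without the block, all lie to the left of 0, and SIC1 lies to the right of 0 as grey diamonds, called only with the block.

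CLN1 and CLN2 encode the G1 cyclins that SBF switches on. In the untreated wild type CLN1 stood at 52.6 and 52.3 FPKM in libraries 0 and 1, and CLN2 at 78.3 and 128. At 10 min CLN1 was at 25.9 and 29.3 FPKM and CLN2 at 40.2 and 60.2. Neither gene's libraries overlapped between 0 and 10 min. CLN1 fell 1.87-fold (log2 change -0.90 ± 0.15 SE, adjusted p = 0.000261) and CLN2 fell 2.01-fold (-1.01 ± 0.32, adjusted p = 0.023). At 20 min CLN1 was still low, at 27.9 and 34.9 FPKM (adjusted p = 0.00102), while CLN2 had come back to 66.1 and 91.7 FPKM and overlapped its values before salt. With the block it was called 1.28-fold lower than before salt at 20 min (adjusted p = 0.00465), a call lost without library 1 at 0 min (0.0891). The rise of CLN2 from 10 to 20 min was 1.57-fold and was called with the block (adjusted p = 0.000119) but not without it (adjusted p = 0.221). Without library 1 at 0 min or library 0 at 10 min, the fall of CLN2 at 10 min was no longer called without the block (adjusted p = 0.201 and 0.182), and it was called in each such fit with the block.

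Mut3 kept CLN2 low. Its CLN2 levels were 84.5 and 122 FPKM at 0 min, 44.6 and 62.4 at 10 min, and 46.7 and 56.2 at 20 min. The values in salt were all below those before it. The log2 change of CLN2 was -0.93 at 10 min (adjusted p = 0.0355) and -0.97 at 20 min (adjusted p = 0.0209). Both calls were lost without library 1 at 0 min or without library 0 of the salt group (highest adjusted p = 0.23 and 0.158). CLN1 in Mut3 went from 53.9 and 62.0 FPKM to 33.1 and 37.9 at 10 min, 1.61-fold lower (adjusted p = 0.00229), and to 28.4 and 28.9 at 20 min, 1.98-fold lower (adjusted p = 7.14e-05). The difference between Mut3 and the wild type in the 20 min change of CLN2, -0.61 on the log2 scale, was called with the block (adjusted p = 0.0256) and not without it (adjusted p = 1). That blocked call was lost in 6 of 8 fits that left out a library (adjusted p up to 0.118).

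Mut1 and Mut2 held the highest CLN1 and CLN2 levels of the 4 strains. Before salt CLN2 was at 114 and 173 FPKM in Mut1 and at 147 and 185 in Mut2. CLN1 was at 67.2 and 83.5 FPKM in Mut1 and at 64.8 and 74.5 in Mut2, above both libraries of the wild type. At 10 min CLN2 was still at 108 and 143 FPKM in Mut1 and at 119 and 164 in Mut2, which is 2.38 to 2.97 times the wild-type library of the same number. CLN2 was not called at 10 min in either mutant, with or without the block. At 20 min it was at 98.3 and 117 FPKM in Mut1 and 114 and 148 in Mut2, called lower only with the block (adjusted p = 0.00337 and 0.00705). Those calls were lost without library 1 of Mut1 at 20 min (0.0587), and without library 0 of Mut2 at 0 min or library 1 at 20 min (up to 0.0642). CLN1 was at 53.1 and 67.8 FPKM in Mut1 and 53.1 and 56.7 in Mut2 at 10 min, not called without the block (adjusted p = 0.136 and 0.11) and called lower with it (0.0177 and 0.0125) or after rescaling (0.032 and 0.0236). Each blocked call was lost in 2 of 4 fits that left out a library (up to 0.194 and 0.072). CLN1 fell 1.46-fold in Mut1 at 20 min (adjusted p = 0.00986; 0.108 without library 1 at 0 min). In Mut2 it was at 57.4 and 52.2 FPKM at 20 min, not called without the block (adjusted p = 0.0923) and called lower with it (0.0106) or after rescaling (0.0139). The blocked call was lost without library 1 at 0 min or at 20 min (up to 0.173).

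CLN3, the upstream cyclin of Start, was called in no comparison without the block. Its wild-type levels were 50.7 and 80.8 FPKM at 0 min, 51.7 and 80.4 at 10 min, and 52.2 and 66.5 at 20 min. All times overlapped in every strain. The log2 change at 10 min was 0.01 ± 0.30 in the wild type (adjusted p = 0.989). The lowest group was untreated Mut3, at 36.8 and 51.9 FPKM. There CLN3 was 1.45-fold lower than in the wild type with the block (adjusted p = 0.00403) and not called without it (adjusted p = 0.878). Leaving out library 1 of the untreated wild type or library 0 of untreated Mut3 ended this blocked call (adjusted p up to 0.0738). In salt Mut3 was at 49.3 and 68.1 FPKM at 10 min and 44.9 and 60.3 at 20 min, called higher than before salt only with the block (adjusted p = 0.00401 and 0.0459). The 10 min call held whichever library was left out, and the 20 min call was lost without any of the 4 (0.0778 to 0.185) and when the block was combined with rescaling (0.238).

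CLB5 and CLB6 encode the cyclins of S phase. In the wild type CLB5 went from 17.3 and 26.0 FPKM to 11.9 and 18.4 at 10 min and 11.4 and 15.7 at 20 min. CLB6 went from 17.4 and 8.42 FPKM to 5.58 and 4.45, and then to 3.27 and 2.21. The CLB6 libraries did not overlap between 0 min and either salt time, and those of CLB5 were separate at 20 min. CLB6 fell 2.20-fold at 10 min (adjusted p = 0.0473) and 3.56-fold at 20 min (-1.83 ± 0.42, adjusted p = 0.00221). The 10 min call was lost without library 0 at 0 min or without either library at 10 min (adjusted p up to 0.371), with a pseudocount of 0.1 FPKM and after rescaling. With the block it held in each fit that left out a library.

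The 20 min fall of CLB6 was also called in Mut3, 8.23 and 4.72 FPKM before and 1.66 and 2.02 after, 2.57-fold lower (adjusted p = 0.0148; up to 0.137 without library 0 of either group). Mut1 ended at 4.14 and 2.69 FPKM and Mut2 at 6.61 and 2.13, where both strains were called lower only with the block (adjusted p = 0.0113 and 0.0133). The 6.61 is from the library with the high RNA genes. CLB5 was called lower at 20 min with the block in all 4 strains, by 1.53- to 1.68-fold (adjusted p = 0.00119 to 0.00506). Without the block it was not called (0.105 to 0.186), except after rescaling, when it was called in all 4 strains (0.0108 to 0.0354). At 10 min it was called with the block in the wild type, Mut2 and Mut3 (adjusted p = 0.0135 to 0.0366), and each of these 3 calls was lost in 2 or 3 of the 4 fits that left out a library (up to 0.12, 0.214 and 0.218). CLB6 in Mut3 was called lower at 10 min only with the block (adjusted p = 0.0301), a call lost without any of the 4 libraries (0.0526 to 0.159). In Mut1 the 20 min call of CLB5 was lost without library 1 at 0 min (adjusted p = 0.057). The blocked CLB6 calls of Mut1 and Mut2 at 20 min were each lost in 2 of 4 such fits (adjusted p up to 0.0726 and 0.229).

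CLB3 and CLB4 encode cyclins of spindle assembly. CLB4 in the wild type went from 22.3 and 22.2 FPKM to 17.4 and 15.8 at 10 min and 16.6 and 13.5 at 20 min. The 3 times of the wild type overlapped only between 10 and 20 min. Its fall was 1.32-fold at 10 min (adjusted p = 0.0381) and 1.45-fold at 20 min (adjusted p = 0.00554). In the mutants the fall was 1.40- to 1.47-fold at 10 min (adjusted p = 0.00676 to 0.0161) and 1.44- to 1.72-fold at 20 min (adjusted p = 0.000386 to 0.00754). The 10 min calls of CLB4 were lost in all 4 strains after rescaling. Without the block they were also lost without any of the 4 libraries in the wild type (adjusted p = 0.0613 to 0.195), without library 1 of either time in Mut2 (up to 0.116), and without library 0 at 0 min or library 1 at 10 min in Mut3 (up to 0.129). At 20 min the call was lost without library 1 at 20 min in the wild type (adjusted p = 0.0795) and in Mut2 (0.059). With the block all 8 calls of CLB4 were made and each held in every fit that left out a library.

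CLB3 in the wild type stood at 34.0 and 44.8 FPKM at 0 min, 30.5 and 39.5 at 10 min and 39.8 and 48.1 at 20 min. The times overlapped, and the changes were -0.17 and 0.16 on the log2 scale (adjusted p = 0.595 and 0.565). With the block both were called, in opposite directions (adjusted p = 0.0467 and 0.047), and each was lost in 3 of 4 fits that left out a library (adjusted p up to 0.28 and 0.282). The call at 20 min was also lost when the block was combined with rescaling (adjusted p = 0.309). In Mut2 at 20 min CLB3 was 1.24-fold lower with the block (adjusted p = 0.00114) and after rescaling without it (0.00505), though not without either (0.27), at 29.96 and 36.0 FPKM against 36.6 and 45.7 before salt.

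CLB1 and CLB2 encode the main cyclins of mitosis, and CLB2 showed the largest fall of the 10 genes at 10 min in every strain. In the wild type CLB2 went from 64.1 and 70.0 FPKM to 15.6 and 14.5 at 10 min and to 10.5 and 8.29 at 20 min. All 3 times were separate. The fall was 4.24-fold at 10 min (-2.08 ± 0.14, adjusted p = 3.9e-08) and 6.58-fold at 20 min (-2.72 ± 0.14, adjusted p = 1.36e-09). From 10 to 20 min it fell a further 1.55-fold (adjusted p = 0.00729), a call lost without library 0 at 10 min or library 1 at 20 min (adjusted p up to 0.106) and made with the block in each such fit.

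In Mut1 and Mut2 no further fall of CLB2 was called after 10 min, with or without the block. The libraries 0 and 1 of each of these strains moved in opposite directions from 10 to 20 min. Whether this change differed between strains was not tested. CLB2 in Mut1 was at 51.3 and 51.8 FPKM at 0 min, 13.9 and 17.8 at 10 min and 14.4 and 15.4 at 20 min. In Mut2 it was at 42.9 and 46.8 FPKM, then 17.5 and 15.4, then 16.5 and 17.2. In Mut3 it was at 53.7 and 49.3 FPKM, then 14.1 and 13.1, then 9.43 and 7.53. At 20 min both libraries of Mut1 and of Mut2 lay above both of the wild type, and those of Mut3 overlapped them. The 20 min fall was 3.30-fold in Mut1 (adjusted p = 1.77e-07), 2.57-fold in Mut2 (adjusted p = 2.23e-06) and 5.56-fold in Mut3 (adjusted p = 2.79e-09). From 10 to 20 min CLB2 fell 1.55-fold in Mut3 (adjusted p = 0.0073; up to 0.0995 without library 0 at 10 min or library 1 at 20 min).

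CLB1 in the wild type went from 52.6 and 68.0 FPKM to 28.1 and 37.5 at 10 min and 16.1 and 18.7 at 20 min. All 3 times were separate, and the fall was 1.82-fold (adjusted p = 0.0133) and then 3.31-fold (-1.73 ± 0.25, adjusted p = 4.11e-05). The 10 min call was lost without library 1 at 0 min or library 0 at 10 min (adjusted p up to 0.118), and the further fall of 1.82-fold from 10 to 20 min (adjusted p = 0.0307) without library 1 at 10 min or either library at 20 min (up to 0.204). All of these were called with the block whichever library was left out. Mut3 had the lowest CLB1 of any group at 20 min, 6.43 and 9.95 FPKM from 41.5 and 56.6 before salt, 5.48-fold lower (adjusted p = 1.11e-06), and it fell 2.52-fold from 10 to 20 min (adjusted p = 0.00207). In Mut1 CLB1 was at 51.7 and 75.8 FPKM before salt and 25.1 and 25.0 at 20 min, 2.44-fold lower (adjusted p = 0.000653). In Mut2 it was at 50.2 and 58.0 FPKM before salt, 22.3 and 22.2 at 10 min and 31.8 and 23.0 at 20 min, 1.96-fold lower at the end (adjusted p = 0.00553). Without library 1 of Mut2 at 20 min, which leaves the library with the high RNA genes to stand for the group, that call was lost (adjusted p = 0.0701). With the block it held.

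SIC1, the inhibitor of Clb kinases, moved opposite to CLB1, CLB2, CLB4, CLB5 and CLB6. CLB3 at 20 min was higher within each library number in the wild type, lower in Mut1 and Mut2 and split in Mut3. The wild-type levels of SIC1 in libraries 0 and 1 were 41.4 and 85.8 FPKM at 0 min, 69.4 and 126 at 10 min, and 69.4 and 114 at 20 min. The times overlapped between libraries. Within a library number SIC1 was higher in salt in all 4 strains at both times, by 1.68-fold in library 0 and 1.47-fold in library 1 at 10 min in the wild type. Mut1 went from 44.7 and 86.6 FPKM to 60.0 and 109 and then 59.6 and 113. Mut2 went from 47.7 and 104 FPKM to 63.4 and 116 and then 55.2 and 127. Mut3 went from 47.8 and 93.3 FPKM to 68.4 and 130 and then 83.2 and 141, the highest group mean of the gene (112 FPKM).

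Without the block SIC1 was called in no comparison, with adjusted p between 0.391 and 0.803 against 0 min. With the block it was called higher in all 4 strains at both times. The blocked adjusted p at 10 min was 5.95e-05 in the wild type, 0.00485 in Mut1, 0.0269 in Mut2 and 0.000621 in Mut3. At 20 min it was 0.000125, 0.00293, 0.0424 and 1.99e-05 in the same order, and the change was 1.48-, 1.31-, 1.18- and 1.61-fold. In Mut2 the blocked call was lost at 10 min without library 0 at 0 min or either library at 10 min (adjusted p up to 0.24), and at 20 min without library 0 at 0 min or library 1 at 20 min (up to 0.44), as well as after rescaling (0.0998). The other 6 blocked calls held whichever library was left out. No difference in SIC1 between a mutant and the wild type was called, before salt or in its change, with or without the block. The difference in the 10 min change, Mut2 minus wild type, was -0.36 on the log2 scale (adjusted p = 0.095 with the block).

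Levels were also put in order within a group, per length. In the untreated wild type CLN2 was the highest, at a mean of 103 FPKM, and CLB6 the lowest, at 12.9. CLB2 (67.1), CLN3 (65.8), SIC1 (63.6) and CLB1 (60.3) followed CLN2, and neighbours among these 4 overlapped between libraries. At 20 min SIC1 was the highest of the wild type, at 91.8 FPKM, with CLN2 (78.9) overlapping it, and CLB2 (9.40) stood above CLB6 (2.74) alone. In Mut1 and Mut2 at 20 min CLN2 stayed on top, at 108 and 131 FPKM, ahead of SIC1 in both libraries though the ranges overlapped. In Mut3 SIC1, at 112 FPKM, was separate from CLN3 (52.6) and CLN2 (51.5) below it.

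Within the CLB paralogue pairs the balance shifted in salt in the wild type. The CLB2 to CLB1 ratio in the wild type was 1.22 and 1.03 before salt in libraries 0 and 1, 0.554 and 0.388 at 10 min and 0.652 and 0.442 at 20 min, so CLB2 went from the higher to the lower of the pair. CLB5 to CLB6 went from 0.991 and 3.09 to 3.50 and 7.14 at 20 min. CLB3 to CLB4 went from 1.53 and 2.02 to 2.40 and 3.56. CLN2 to CLN1 was 1.49 and 2.45 before salt, 1.56 and 2.06 at 10 min, and 2.37 and 2.63 at 20 min. CLB2 to CLB1 was already below 1 before salt in Mut1 (0.991 and 0.684) and Mut2 (0.855 and 0.807). CLB5 to CLB6 in Mut2 went from 1.96 and 4.47 before salt to 1.94 and 5.87 at 20 min. Over the same times CLN2 to CLN1 in Mut2 went from 2.26 and 2.49 to 1.98 and 2.83. In Mut3 at 20 min CLB5 was 7.12 and 7.30 times CLB6, the highest mean of that ratio, and CLB2 to CLB1 was 1.47 in library 0 and 0.756 in library 1, on both sides of equality. These ratios were not tested.

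**Figure D3:**
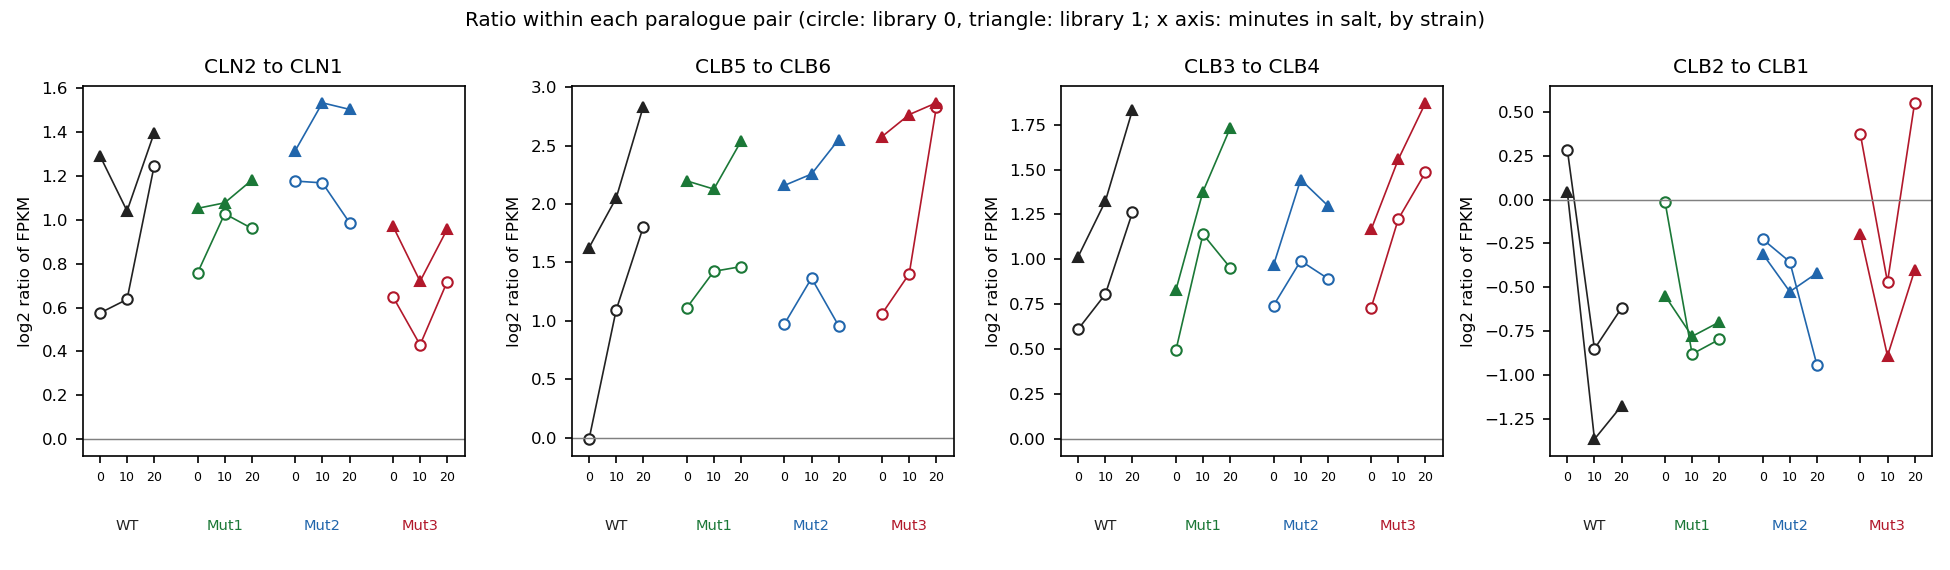
Log2 ratio of FPKM within each paralogue pair (y axes with separate ranges that do not all start at 0) at 0, 10 and 20 min in salt (x axis, by strain); circles are library 0, triangles library 1, lines join a library number, and the grey line marks equal levels. In the wild type CLB5 to CLB6 and CLB3 to CLB4 go up at each time in both library numbers, while CLB2 to CLB1 goes from above to below 0.

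From 10 to 20 min, 2 of the 10 genes were called in the wild type, CLB1 and CLB2, where 14.2% of all features were called, and the same 2 in Mut3 (14.2%). In Mut1 (3% of all features) and Mut2 (4.31%) limma called 0 of the 10, and 0 had an unadjusted p under 0.05. With the block, 5 were called in the wild type (41.8% of all features) and 4 in Mut3 (42.3%). The blocked calls added CLN2 and CLB3 (higher) and CLB6 (lower) in the wild type, and CLN1 and CLB6 (lower) in Mut3. Those of CLB6 and CLN1 were lost in 3 or 4 of 4 fits that left out a library (adjusted p up to 0.205 for CLB6 in the wild type, and 0.182 and 0.453 for CLN1 and CLB6 in Mut3). The blocked counts were 0 in Mut1 (20.3%) and 0 in Mut2 (28.4%), where 5 and 1 genes had an unadjusted p under 0.05.

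Before salt CLB2 was lower in the mutant libraries than in the wild type, and this was called in Mut2. The wild type had 64.1 and 70.0 FPKM, above all 6 mutant libraries, which lay between 42.9 and 53.7. In Mut2 it was 1.48-fold lower (-0.57 ± 0.14, adjusted p = 0.0295), a call lost without any of the 4 libraries (adjusted p up to 0.204) and after rescaling (0.124). With the block (0.00641) it was lost without library 1 of the wild type or library 0 of Mut2 (up to 0.0675). On the deposited columns it was the only call among the 10 genes at 0 min without the block, where 4.51% of all features were called in Mut2. In Mut1 (4.62% of all features) and Mut3 (1.62%) limma called 0 of the 10, and 2 genes (CLN1 and CLB2) and 1 gene (CLB2) had an unadjusted p under 0.05. With the block, 3 genes were called in Mut1 (18.1% of all features), 3 in Mut2 (20.9%) and 1 in Mut3 (7.91%).

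The blocked calls at 0 min in Mut1 and Mut2 put the G1 cyclin genes higher. CLN1 was 1.42-fold higher in Mut1 (adjusted p = 0.00313) and 1.32-fold in Mut2 (0.0142), and CLN2 was 1.40-fold (0.00297) and 1.64-fold higher (0.00012). After rescaling, CLN1 in Mut1 (0.0319) and CLN2 in Mut2 (0.0428) were also called without the block. The CLN2 call in Mut2 held whichever library was left out. The others were lost without 1 or 2 of the libraries: CLN1 without library 1 of untreated Mut1 (adjusted p = 0.0515), or without library 1 of the untreated wild type or Mut2 (up to 0.127), and CLN2 in Mut1 without library 0 of the untreated wild type (0.0571). CLB6 was 1.72-fold lower in Mut1 (adjusted p = 0.0467). That call was lost without library 0 of the wild type or either library of Mut1 and, with the block, after rescaling (0.0515). Untreated CLB6 was at 17.4 and 8.42 FPKM in the wild type and 7.62 and 5.82 in Mut1. It was at 9.52 and 5.79 FPKM in Mut2 and 8.23 and 4.72 in Mut3. Each mutant library lay below the wild-type library of its number, though CLB6 was not called in Mut2 or Mut3.

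The response of CLB2 differed between strains. At 20 min its change was 0.99 ± 0.20 log2 units less negative in Mut1 than in the wild type (adjusted p = 0.0123) and 1.36 ± 0.20 less in Mut2 (adjusted p = 0.00128). Mut3 differed by 0.24 ± 0.20 and was not called. These were the only calls among the 10 genes, where 2.5% of all features were called in Mut1, 3.13% in Mut2 and 0.299% in Mut3. For Mut3, limma called 0 of the 10, and 0 had an unadjusted p under 0.05. The Mut2 call held in all 8 fits that left out a library (adjusted p up to 0.00983). Fitted on the compared groups alone, neither call was made (0.207 in Mut1 and 0.131 in Mut2). The Mut1 call was lost in 4 of 8, without library 1 of the wild type at 0 or 20 min, library 0 of Mut1 at 0 min or library 1 of Mut1 at 20 min (adjusted p up to 0.0773), and after rescaling (0.0672), and it held with the block in all 8. Before salt CLB2 had a mean of 67.1 FPKM in the wild type, 51.5 in Mut1 and 44.9 in Mut2.

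With the block the 20 min counts were 2 in Mut1 (15.5% of all features), 3 in Mut2 (25.3%) and 1 in Mut3 (3.73%). Beside CLB2, CLB3 was called with a more negative change in Mut1 (adjusted p = 0.0473) and Mut2 (0.00327), and CLB6 with a less negative change in Mut2 (0.0471). The CLB3 call in Mut1 and the CLB6 call in Mut2 were lost in 7 and 6 of 8 fits that left out a library.

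At 10 min differences in response were called with the block only, for CLN1 and CLN2 in Mut1 and Mut2 and for CLB2 in Mut2. Of these, only the CLN2 calls held whichever library was left out. Without the block limma called 0 of the 10 genes in Mut1 (2.59% of all features), Mut2 (2.42%) and Mut3 (0.189%), and 2, 2 and 0 had an unadjusted p under 0.05. With the block 2 genes were called in Mut1 (16.4% of all features), 3 in Mut2 (15.6%) and 0 in Mut3 (1.09%), where 1 had an unadjusted p under 0.05. CLN2 changed by 0.84 log2 units less negatively in Mut1 (adjusted p = 0.00104) and 0.78 in Mut2 (0.00188), and these calls held whichever library was left out. CLN1 changed by 0.59 and 0.57 log2 units less negatively (adjusted p = 0.0141 and 0.0177), and these were lost in 3 and 4 of 8 such fits (up to 0.0764 and 0.078). CLB2 was called in Mut2 (0.69 log2 units, adjusted p = 0.0209) and lost in 4 of 8 (up to 0.0821).

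**Figure D4:**
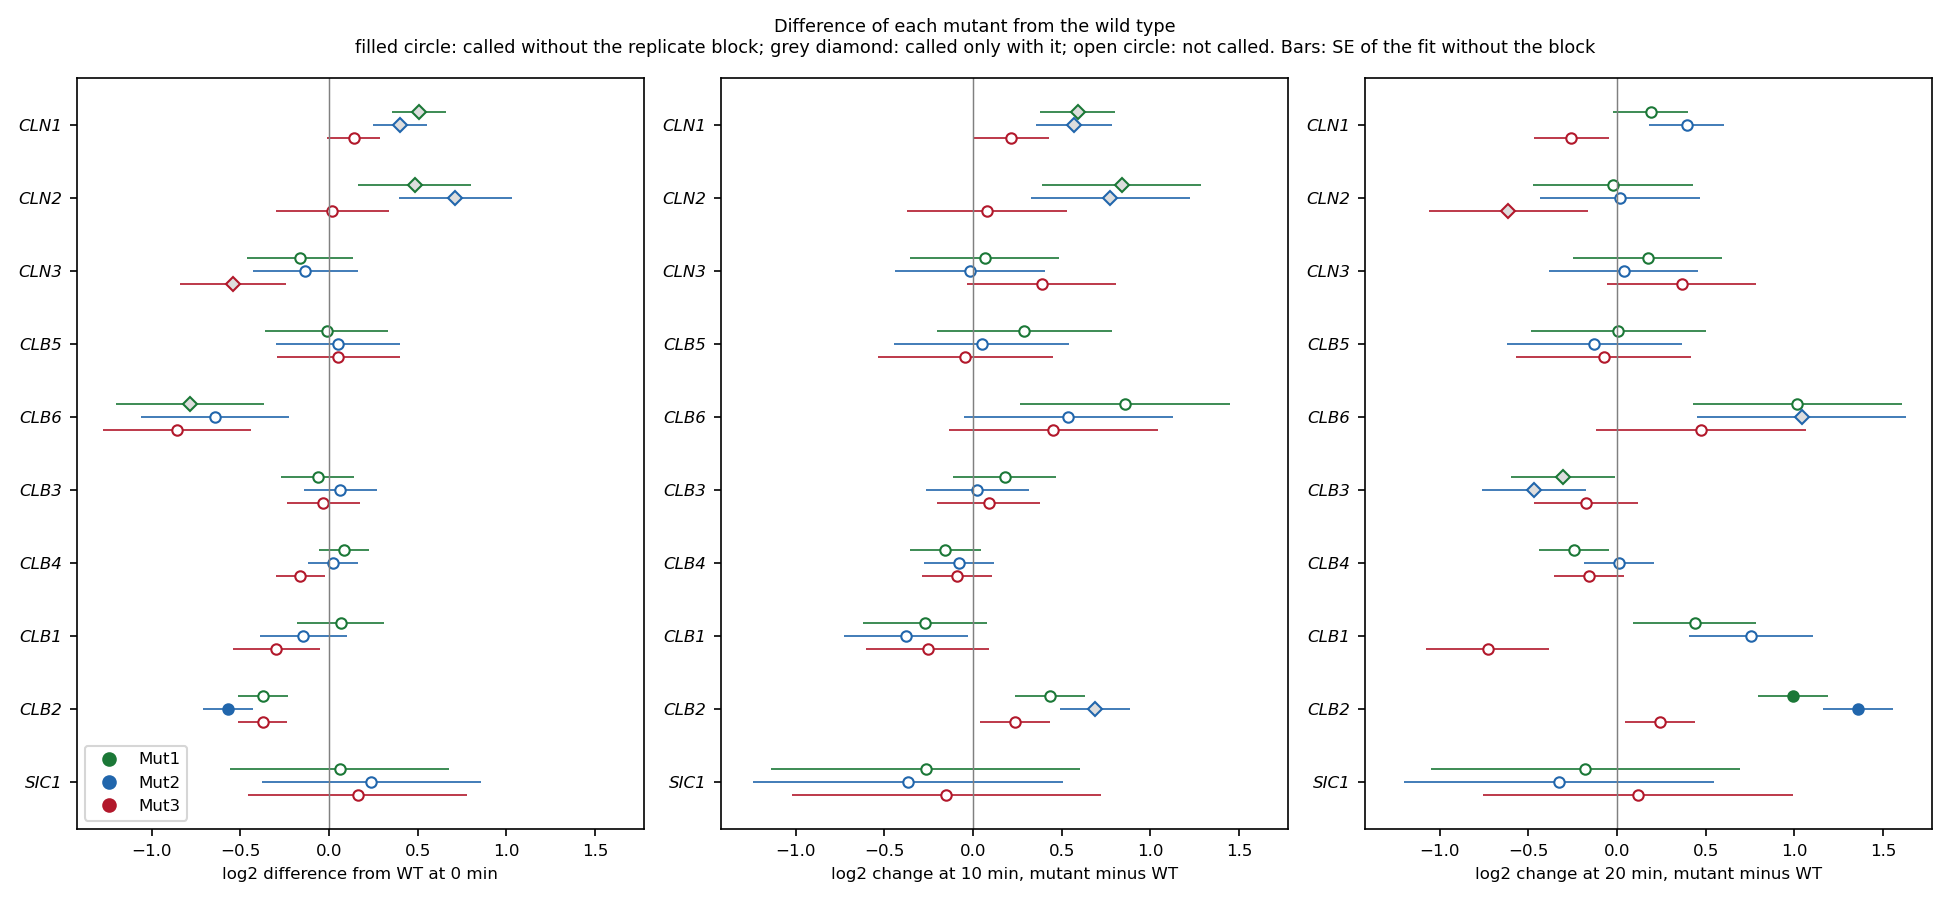
Log2 difference of each gene (rows) between a mutant (colours) and the wild type at 0 min (left), and of its change at 10 min (middle) and 20 min (right), in FPKM + 1, with bars of 1 SE of the fit without the block. The filled circles, calls without the block, are CLB2 in Mut2 at 0 min (-0.57) and CLB2 in the 20 min change of Mut1 (0.99) and Mut2 (1.36).

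Genes around the cyclins were read from lists of the kinase and its other cyclins, inhibitors, transcription factors, their targets and the degradation machinery. CDC28 itself, the kinase subunit, rose in the wild type from 125 and 115 FPKM to 214 and 183 at 10 min (1.65-fold, adjusted p = 0.00741) and 248 and 210 at 20 min (adjusted p = 0.000881). It also rose in Mut3, 1.74-fold at 20 min (adjusted p = 0.00249), and in Mut1 and Mut2 it was called with the block and not without it. The first list has 14 genes, for Cdc28, the related kinase Pho85, further subunits of each and the separate kinase Cak1. Of the 14, 4 rose and 1 fell at 10 min in the wild type, and 5 rose and 3 fell at 20 min. With the block 9 rose and 3 fell at each time. Of all features in the wild type, 17.6% rose and 17.6% fell at 10 min, and 24.5% rose and 22.5% fell at 20 min. With the block 31.8% rose and 29.8% fell at 10 min, and 38.8% rose and 31.9% fell at 20 min, and the counts of every gene list described for the wild type stand against these shares. PCL1, a Pho85 cyclin of G1, went from 47.9 to 156 FPKM at 10 min (3.25-fold, adjusted p = 0.000337). PCL8 and PCL10, Pho85 cyclins linked to glycogen metabolism, rose 3.93-fold and 2.65-fold at 20 min (adjusted p = 0.00207 and 0.00571). The median log2 change of this list was 0.90 at 20 min in the wild type, where that of all features was 0.07.

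Of 7 genes for kinase inhibitors and for the tyrosine phosphorylation of Cdc28, 3 rose and 2 fell in the wild type at each time, and 4 and 2 with the block. CIP1, which encodes another inhibitor of Cdc28, went from 12.01 to 66.8 FPKM at 10 min (5.11-fold, adjusted p = 0.00128). At 20 min it was 5.07-fold higher in the wild type, and it also rose in Mut1 (4.73-fold), Mut2 (2.96-fold) and Mut3 (5.65-fold). In Mut2 CIP1 was not called higher at 10 min without the block. WHI7, a repressor of Start related to WHI5, rose 2.08-fold at 10 min (adjusted p = 0.0189). WHI7 was already at 117 and 144 FPKM in untreated Mut1 and Mut2, against 41.4 in the untreated wild type, and was not called higher in salt there. FAR1, the inhibitor used in the mating response, fell 2.99-fold at 20 min (adjusted p = 8.57e-07).

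Of 13 regulators of Start, 1 rose and 3 fell at each time in the wild type. With the block 3 rose and 6 fell at 10 min, and 3 rose and 4 fell at 20 min. XBP1, a stress-induced repressor, went from 4.99 to 41.3 FPKM at 10 min (7.10-fold, adjusted p = 0.00771). SWI4, the DNA-binding subunit of SBF, went from 8.70 and 7.73 FPKM to 4.28 and 4.004 at 10 min, 1.79-fold lower (adjusted p = 0.00615), and was at 5.12 and 3.95 at 20 min. In Mut1 and Mut2 SWI4 was not called at either time without the block. NRM1, the corepressor of MBF, fell 3.92-fold at 20 min (adjusted p = 0.000584). WHI5, the repressor of SBF, was at 5.02 and 15.4 FPKM at 0 min and 8.20 and 21.4 at 10 min in the wild type, with overlapping libraries (adjusted p = 0.666, and 0.0274 with the block).

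Of 25 targets of SBF and MBF besides the cyclins, 8 fell at 10 min and 13 at 20 min in the wild type, with a median log2 change of -0.55 at 20 min. With the block 14 fell and 2 rose at 10 min, and 15 fell and 3 rose at 20 min. MNN1, a mannosyltransferase of the Golgi, went from 103 to 12.7 FPKM at 20 min (7.62-fold lower, adjusted p = 1.85e-09), and RNR1, the large subunit of ribonucleotide reductase, from 205 to 46.4 (4.34-fold lower, adjusted p = 1.01e-06). POL12, a subunit of DNA polymerase alpha, fell 2.30-fold at 10 min, and the cohesin gene SMC3 fell 3.24-fold at 20 min. At 10 min 10 of the 25 fell in Mut1 (15.5% of all features), 10 in Mut2 (15.4%) and 11 in Mut3 (16.7%). At 20 min 12 fell in Mut1 (19.5%), 15 in Mut2 (18.2%) and 15 in Mut3 (22.4%).

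Of 19 other genes of the G2/M group, 9 fell and 1 rose at 10 min and 11 fell at 20 min in the wild type. With the block 11 fell and 5 rose at 10 min, and 14 fell and 3 rose at 20 min. CDC20, which turns the anaphase-promoting complex on mitotic cyclins, went from 25.0 to 5.42 FPKM at 10 min (4.02-fold lower, adjusted p = 1.13e-05). FKH2, a forkhead factor gene listed beside FKH1, fell 3.36-fold, and the Polo kinase gene CDC5 2.62-fold, at 10 min. ALK1, a haspin-related kinase gene, fell 5.21-fold and IQG1, of the cytokinetic ring, 3.27-fold at 20 min. SWI5, the factor that switches on SIC1 at the end of mitosis, went from 31.3 and 35.9 FPKM to 16.0 and 20.1 and then 11.2 and 11.9 in the wild type, 2.75-fold lower at 20 min (adjusted p = 2.73e-07). The mutant libraries at 20 min lay above those of the wild type, at 24.3 and 26.0 FPKM in Mut1, 26.2 and 25.7 in Mut2 and 18.3 and 18.2 in Mut3.

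The list for the degradation of cyclins and Sic1 has 24 genes and also holds the mitotic exit genes CDC14, CDC15 and TEM1. Of the 24, 3 rose and 2 fell at 10 min and 8 rose and 1 fell at 20 min in the wild type. Their median log2 change was 0.36 at 20 min. With the block 7 rose and 4 fell at 10 min, and 14 rose and 2 fell at 20 min. HRT1, the RING subunit of SCF, went from 155 to 336 FPKM at 20 min (2.18-fold, adjusted p = 0.00528), and APC9, a subunit of the anaphase-promoting complex, from 12.8 to 29.3 (2.24-fold, adjusted p = 0.0167). CDC20 is also in this list. The median change of all features tested in the wild type was 0.02 at 10 min and 0.07 at 20 min.

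**Figure D5:**
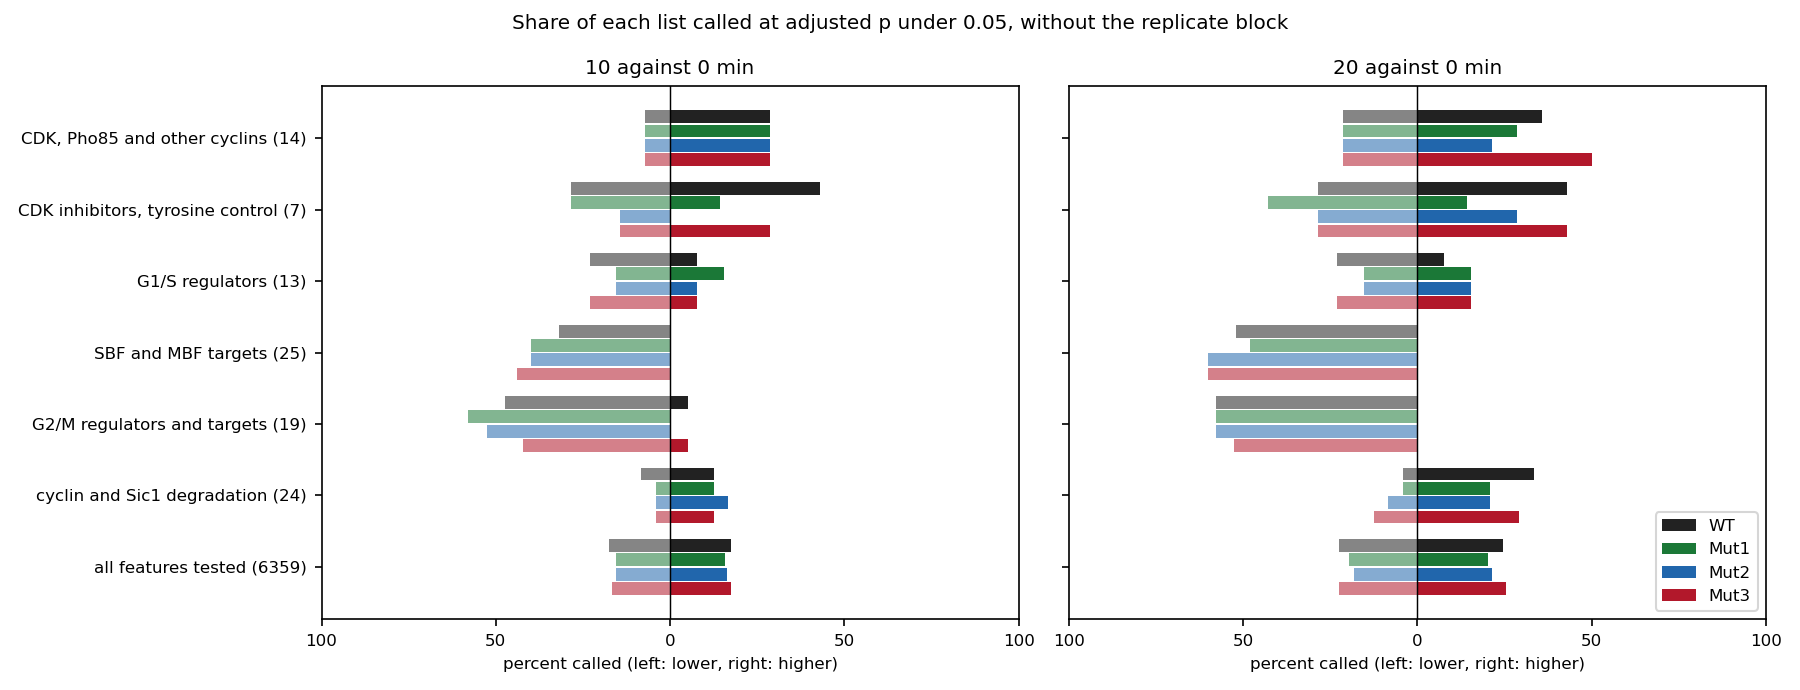
Percent of each list called lower (left, pale bars) or higher (right, dark bars) than at 0 min without the block, at 10 and 20 min, by strain (colours), with the number of tested genes in brackets and all 6359 tested features at the bottom. In the wild type at 20 min the bars of the SBF and MBF targets (13 of 25) and of the G2/M group (11 of 19) reach further to the left than that of all features (22.5%).

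Marker genes of other states moved in salt as well. Of the 6 MATa genes, 4 fell and 1 rose at 10 min and 5 fell at 20 min in the wild type, among them the pheromone receptor gene STE2 (7.67-fold lower at 20 min, adjusted p = 8.23e-09). MFA1, which encodes the pheromone a-factor, rose 2.05-fold at 10 min (adjusted p = 0.0154), while STE6 fell at 10 min and MFA2 and BAR1 at 20 min. The summed MATa level was 21724 and 32883 FPKM in the untreated wild type and 6438 to 8178 at 20 min. Before salt it was 8718 and 12647 FPKM in Mut1, 10212 and 11834 in Mut2 and 14428 and 31511 in Mut3. Called lower than in the wild type before salt were 5, 4 and 1 of the 6 genes, against 1.56%, 1.62% and 0.425% of all features. The part of this in the strain differences of the cyclin genes was not tested. Of 8 tested meiotic genes, 3 rose at each time, such as IME2, from 4.43 to 19.5 FPKM at 10 min (adjusted p = 1.69e-07), and HOP1. Their summed level over 9 genes was 44.8 to 47.4 FPKM in the untreated wild type and 73.4 to 85.1 at 10 min. The part of these in the cyclin results was not tested. Of the 4 MATalpha genes 2 reached the minimum for testing, with 0 called, and the summed level stayed between 21.9 and 49.5 FPKM over all libraries.

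Across the 12 group means of log2(FPKM + 1), features in a pool of 5970 averaging 5 FPKM or more were ranked by Pearson correlation with each gene, as a description over groups that share strains and times. Nearest to CLB2 were HPM1 (0.993), NAM7 (0.992) and PSE1 (0.992). Nearest to CLB1 were KEI1 (0.972), AZR1 and SUP45, and nearest to CLB4 were SPC97 (0.983), a gene of the spindle pole body, CHS3 and SPB4. CLN2 was nearest to TOS6 (0.941), LHS1 and SVS1 (0.931), and SVS1 is among the SBF and MBF targets listed above. Features close to CLN1 included IDP1 (0.950) and the septin gene CDC12 (0.944). For SIC1 the nearest were SGA1 (0.982), a glucoamylase gene of sporulation, YJU2 and AFG3. CLB5 was nearest to FAA4 (0.964), YCR043C and YAH1, and CLB6 to ARG56 (0.970), ARO5 and YPR059C. CLB3 and CLN3, which varied least, had no feature above 0.836 and 0.822; those nearest were STB1, CAF4 and MSI1 for CLB3, and YCR095W-A, YBR027C and VMA6 for CLN3.

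Among the 10 genes themselves, the same measure was 0.93 between CLN1 and CLN2 and 0.92 between CLB1 and CLB2. SIC1 ran opposite to CLB2 (-0.95), CLB1 (-0.92) and CLB4 (-0.90).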

How the data were processed

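RNA of 24 libraries was analysed from the deposited FPKM values, 1 column per library. Per the labels' protocols, the kit was TruSeq stranded mRNA. The submitters' processing notes name TopHat2, Cuffdiff and build sacCer3, with tool versions and any scaling of libraries not stated there. Read counts were not used, so depth and the precision it gives are unknown. Column names gave the strain and time, with strains 1 to 3 taken as Mut1 to Mut3; the final 0 or 1 is not tied to a replicate number in the labels.

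The 6359 of 7126 features averaging 1 FPKM or more were fitted on log2(FPKM + 1), using limma 3.58.1 under R 4.3.3 with a mean for each of 12 groups and a mean-variance trend. Residual degrees of freedom were 12, with 1.88 from the prior. Tests were two-sided, p-values were adjusted by Benjamini and Hochberg over the whole table within each comparison, and calls were made at an adjusted p under 0.05. Folds are ratios of FPKM + 1, which understates changes of low genes; ratios of libraries use FPKM alone. Errors after log2 changes are SE of the fit without the block. The fits were tested on simulated data. Deviations from group means correlated between same-numbered libraries in all 66 pairs of groups (0.23 to 0.601, median 0.469), so the library number was also fitted as a block, a pairing that comes from the data and the column names.

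The genes and lists were chosen with earlier results of these data known. All 10 genes are named, with SWI4, SWI5, CDC28 and WHI5. Each list adds up to 3 called genes of largest change in the wild type at each time, at a mean of at least 5 FPKM, and each gene adds its 3 most correlated features. A list of targets and a correlated feature are not reported here. The strain values given for WHI7 and CIP1 were added after their values were seen. Other settings tried were leaving low features in, rescaling the columns by median ratios, adding 0.1 FPKM before logs, the block with and without rescaling, the compared groups alone, FPKM + 1 in the pair ratios, and leaving out each library. Protein-coding features alone, and leaving out each library with the block, were chosen after seeing the data. Promoter motifs were searched in the R64 genome, coding sequences were compared with blastn 2.17.0, and the other genes named were checked in the same way, with no overlap or near-identical copy found.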

Additional observations from a re-analysis of the deposited data

Results flagged for a closer look

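The change of CLB2 at 20 min differed between strains by a test of the difference itself. It was 0.99 log2 units less negative in Mut1 than in the wild type, with the change at -1.72 in Mut1 and -2.72 in the wild type. It was 1.36 log2 units less negative in Mut2, where the change was -1.36. In both mutants CLB2 started lower and ended higher than in the wild type, in both libraries. Fitted on the compared groups alone, neither difference was called (adjusted p = 0.207 in Mut1 and 0.131 in Mut2).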

How the results depend on the processing

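In the fit on the compared groups alone, which has fewer samples, the genes called at 10 min numbered 1 in each strain, and at 20 min 3 in the wild type, 2 in Mut1 and 1 in Mut2. It called 0 from 10 to 20 min in the wild type and Mut3, 0 at 0 min in Mut2, and 0 for the 20 min change of Mut1 and Mut2. With the library number as a block the counts at 10 min were 5 in Mut1, 6 in Mut2 and 9 in Mut3. At 20 min they were 9 in the wild type, 8 in Mut1 and 9 in Mut2. From 10 to 20 min they were 5 in the wild type and 4 in Mut3, at 0 min 3, 3 and 1, for the 10 min change 2 and 3 in Mut1 and Mut2, and for the 20 min change 2, 3 and 1. The block with rescaling gave 6, 8 and 9 in the mutants at 10 min, and 8 in the wild type, 9 in Mut1 and 8 in Mut2 at 20 min. From 10 to 20 min it gave 5 in the wild type, 1 in Mut2 and 5 in Mut3, at 0 min 3, 3 and 1, for the 10 min change 2 and 4, and for the 20 min change 2, 3 and 1. Rescaling alone gave 6 in Mut2 at 20 min, 1 in Mut1 at 0 min and 0 for the 20 min change of Mut1. Another pseudocount, no filter and protein-coding features alone kept every count within 1.5 times. Shares of all features are given only for the fits on the deposited columns of all groups, without and with the block. The counts under the other settings, and those with a library left out, therefore have no background beside them. They show how far the counts move and not whether these genes exceed other features. The log2 ratio of CLB5 to CLB6 in Mut3 at 20 min was 2.85, and 2.32 with FPKM + 1.

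Leaving out a library gave counts of 2 to 4 at 10 min and 0 to 1 from 10 to 20 min in the wild type, 1 to 4 in Mut2 at 20 min, 1 to 2 from 10 to 20 min in Mut3, 0 in Mut2 at 0 min and 0 to 1 for the 20 min change of Mut1. Of the 42 calls without the block 24 held in each such fit, and of the 91 with it 58, all 91 keeping their direction.

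Without the block, uncalled log2 changes crossed 0 when a library was left out: CLB3 in the wild type ranged from -0.36 to 0.027 at 10 min and from -0.032 to 0.35 at 20 min. SIC1 ranged from -0.0976 to 0.84 in Mut1 and -0.28 to 0.83 in Mut2 at 10 min, and from -0.0779 to 0.86 in Mut1 and -0.35 to 0.84 in Mut2 at 20 min. Replicate spread of 2 libraries and the unknown depth limit every value, and a fit that leaves out a library assumes that the lone sample varies like the other groups.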
